A study of Mus musculus with 34 samples.

Results

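The 7 genes described here encode transcription factors that mark the luminal and the mesenchymal state of mammary cells. Gata3 stands for the luminal state, Sox9 for mammary progenitor and stem-like states, and Snai1, Snai2, Zeb1, Zeb2 and Twist1 for the mesenchymal state. They were taken by name, and not by a threshold on their values, from a table of 55341 gene names, and 7 of 7 were found. The choice was made with earlier results of these data known, so counts of called members beside shares of all genes are descriptions only. Levels were read in 34 total RNA sequencing libraries of mouse mammary adenocarcinoma 3617-derived cells. In all of these cells, controls included, the endogenous glucocorticoid receptor (GR, gene Nr3c1) was knocked out and a GFP-tagged mouse GR was stably expressed. GR is a ligand-activated transcription factor, and dexamethasone (Dex) is a synthetic glucocorticoid that activates it. Cells of every group were kept in charcoal/dextran-treated serum with tetracycline and were treated for 2 h with 100 nM Dex or with ethanol (EtOH), its vehicle.

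By the library numbers in the sample titles, the 12 groups fall into 2 library sets. Set 1 holds the receptor forms wild type (WT), Y551A and Y551A-Dim, each with 3 EtOH and 3 Dex libraries. Set 2 holds a separate WT with 2 EtOH and 2 Dex libraries, and D647V and D647V-Tetra with 3 of each. The letters and number name an amino acid substitution, and Dim and Tetra are used as names because the labels do not spell them out. There is 1 cell line per receptor form, so an effect of the substitution and any other difference between the lines cannot be told apart. Lines were compared only with lines of their own set, since set and line cannot be told apart across sets. The labels name 2 kit batches without assigning libraries to them, so kit batch could not be taken into account, also within a set. The labels give triplicate treatments and do not say that these were separate cultures, so the p-values measure the spread between these libraries, which may be technical. Counted reads ran from 44998213 to 70124595 per library in set 1 and from 60277930 to 79776573 in set 2.

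GATA3 is a zinc finger factor needed for luminal cell fate in the mammary gland. SOX9 is an HMG-box factor of luminal progenitors and basal cells. SNAI1 and SNAI2 (Slug) are related zinc finger repressors, ZEB1 and ZEB2 are zinc finger and homeodomain repressors, and TWIST1 is a basic helix-loop-helix factor. The last 5 are the core factors of the epithelial-mesenchymal transition (EMT), and the SNAI and ZEB proteins bind E-box sequences in promoters such as that of Cdh1, the E-cadherin gene, and repress it. In the mammary gland SNAI2 is also a factor of basal epithelial cells.

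The 7 genes are grouped here by mammary epithelial identity, but the defining luminal transcripts of such cells were at or near 0. Levels are given in CPM (reads per 1000000 counted reads, with TMM-scaled library sizes). Epcam, a surface protein of epithelial cells, had 0 counted reads in 34 of 34 libraries. The limit that a count of 0 allows, 3 reads, corresponds to 0.0376 to 0.0667 reads per 1000000 on the unscaled library totals. Cdh1 had at most 4 reads and Krt18, a luminal keratin, at most 6 reads in any library. Of 7 luminal markers 1 reached a median of 1 CPM, and this was Cd24a, with a median of 231 CPM. Of 6 basal markers 2 did, namely Mylk at 21.1 CPM and Krt14 at 3.95 CPM. Of 8 fibroblast or mesenchymal markers 5 did, led by the intermediate filament gene Vim. Its median was 4660 CPM, with a range of 3900 to 5360 CPM. The markers Thy1, Lum and Dcn did not, with at most 2, 6 and 10 reads in any library. The summed level of the mesenchymal markers was 4090 to 5580 CPM, against 185 to 264 CPM for the luminal, 20.9 to 44.9 CPM for the basal, 3.91 to 6.77 CPM for the immune, 2.09 to 9.36 CPM for the endothelial and 0.0404 to 0.522 CPM for the adipocyte markers. Most of the mesenchymal sum came from Vim and most of the luminal sum from Cd24a. The genes are therefore called luminal and mesenchymal factors below, without a statement on the identity of the cells. In these bulk libraries fewer cells of a type and less RNA per cell cannot be told apart.

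All 7 genes are protein coding and have a single locus in the mm10 annotation. Gata3 lies on the minus strand of chromosome 2 from 9857078 to 9890034, Zeb2 on the minus strand of chromosome 2 from 44983632 to 45117395, and Snai1 on the plus strand of chromosome 2 from 167538195 to 167542814. Sox9 lies on the plus strand of chromosome 11 from 112782224 to 112787760, Snai2 on the plus strand of chromosome 16 from 14705852 to 14709385, and Twist1 on the plus strand of chromosome 12 from 33957671 to 33959829. The counts cover all annotated exons, UTRs included. Exons of Gata3 overlap those of 9230102O04Rik on the same strand, whose median count was 0, and Zeb2 overlaps its antisense gene Zeb2os, whose median count was 58 against 7155 for Zeb2. Counting used strand, so antisense reads were assigned separately.

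Gata3 had the largest Dex response among the 7 genes in WT, so the 250 bases before its RefSeq start (GRCm38.p6, the mm10 assembly, chr2:9878601-9878850, minus strand, inside the annotated span of the gene) are shown. The window was searched on both strands for the GR half-site, spelled AGAACA, and for its reverse complement TGTTCT. It was also searched for the E-box bound by SNAI and ZEB proteins, spelled CAGGTG, and for its reverse complement.
Gata3: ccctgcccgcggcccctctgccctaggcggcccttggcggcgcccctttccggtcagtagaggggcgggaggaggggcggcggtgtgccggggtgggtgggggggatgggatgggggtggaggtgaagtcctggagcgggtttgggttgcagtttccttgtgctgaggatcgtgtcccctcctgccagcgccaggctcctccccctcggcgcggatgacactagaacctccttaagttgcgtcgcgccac
The window was 70.0% G or C and held neither motif, so it has no capitals. The half-site occurs in 16.1% and the E-box in 17.2% of 32851 windows of this length before RefSeq starts. No match says only that these letters are not in this window. Among the other genes the E-box was found in the window of Snai1, read as CACCTG 126 bases before the start, and no match was found in those of Zeb2 and Twist1. Sox9, Snai2 and Zeb1 were not analysed here in this way.

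All 7 genes were expressed in every library and passed the filter on low counts in both sets. Reads per library were fewest for Snai1 (171 to 538), Snai2 (248 to 687) and Gata3 (281 to 1517), intermediate for Twist1 (876 to 1664), and most for Zeb1 (2839 to 6212), Sox9 (3289 to 9472) and Zeb2 (4513 to 9691). Divided by the counted exon length, EtOH levels of WT in set 1 were 15.7 ± 0.929 CPM per kb for Sox9, 14.4 ± 0.626 for Twist1, 6.15 ± 0.118 for Zeb1, 5.33 ± 0.265 for Snai2, 5.08 ± 0.0336 for Zeb2, 3.33 ± 0.366 for Snai1 and 1.75 ± 0.0306 for Gata3 (SD, n = 3). In that order Sox9 and Twist1, and Snai2 and Zeb2, differed by less than the sum of their SDs. In WT of set 2 the EtOH levels were 20.2 ± 0.574 CPM per kb for Sox9, 13.4 ± 1.90 for Twist1, 8.30 ± 0.243 for Zeb1, 6.58 ± 0.314 for Zeb2, 4.45 ± 0.288 for Snai1, 4.12 ± 0.618 for Snai2 and 1.83 ± 0.178 for Gata3 (SD, n = 2). Here Snai1 and Snai2 were within the sum of their SDs. Sox9 ranked first, Twist1 second and Gata3 last in each of the 6 EtOH groups, in which the Gata3 mean was 1.42 to 1.83 CPM per kb. In D647V-Tetra Sox9 (13.3 ± 1.00 CPM per kb) and Twist1 (13.1 ± 1.48) were within the sum of their SDs. The order of Snai1 and Snai2 varied, also between the 2 WT groups: Snai2 was above Snai1 in WT of set 1, D647V and D647V-Tetra and below it in the other 3 groups. Their means were within the sum of their SDs in WT of set 2, Y551A-Dim (3.92 ± 0.484 for Snai1 and 3.51 ± 0.275 for Snai2) and D647V-Tetra (2.97 ± 0.540 and 3.23 ± 0.210).

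Gata3 and Sox9 rose and Snai2 fell 2 h after Dex in WT of both sets. A gene counts as called at an adjusted p under 0.05 in the edgeR quasi-likelihood test with Benjamini-Hochberg adjustment over all genes tested. Over the 7 genes, 2 were called up and 1 down in WT of set 1, where 3.4% of the 16140 genes tested were called, 2% up and 1.4% down. The counts were also 2 up and 1 down in Y551A (1.84% of all genes, 1.43% up and 0.415% down), in WT of set 2 (1.72% of 17535 genes, 1.35% up and 0.376% down) and in D647V (0.941%, 0.804% up and 0.137% down). The Y551A-Dim line had 1 up and 1 down (1.09% of all genes, 0.898% up and 0.192% down). D647V-Tetra had 3 up and 1 down, beside 19.2% of all genes, 11.3% up and 7.89% down. Over both sets together, with the set as a term, the WT responses were 1.46 ± 0.07 for Gata3 (edgeR adjusted p = 2.40e-11), 0.57 ± 0.04 for Sox9 (adjusted p = 1.87e-08) and -0.82 ± 0.08 for Snai2 (adjusted p = 6.10e-07), beside 4.66% of 16540 genes called, 2.71% up and 1.94% down. None of the 7 WT responses was called different between the sets (0.0181% of all genes were), and the interval of the difference was -0.32 to 0.27 for Gata3, -0.23 to 0.13 for Sox9 and -0.42 to 0.25 for Snai2.

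**Figure D1:**
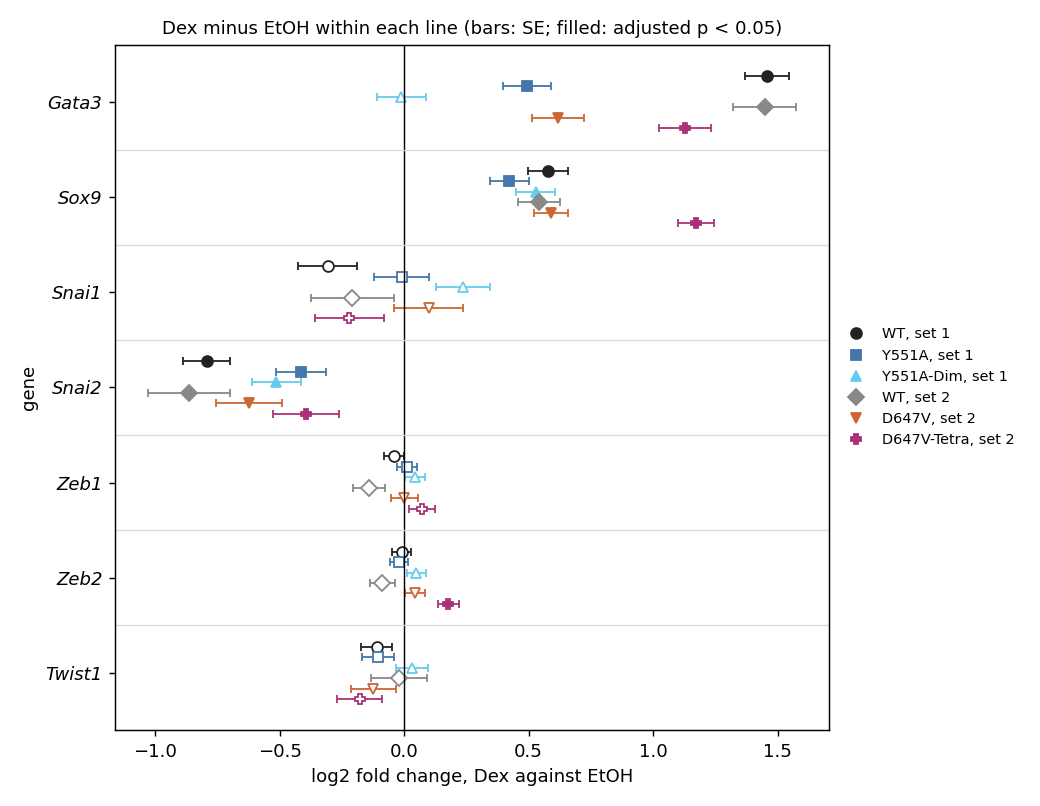
Log2 fold change of Dex against EtOH within each line for the 7 genes, with the SE as bars and filled symbols for adjusted p below 0.05. Gata3 spreads from -0.01 (Y551A-Dim) to 1.46 (WT of set 1), Sox9 lies at 0.42 to 0.59 apart from 1.17 in D647V-Tetra, and Snai2 is negative in all 6.

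Gata3 RNA rose with Dex in 5 of the 6 line responses and gave the clearest difference between lines. In WT of set 1 it stood at 6.83, 7.07 and 6.98 CPM in EtOH and at 18.6, 20.9 and 17.9 CPM in Dex. The WT of set 2 stood at 6.79 and 7.79 CPM in EtOH and at 22.0 and 17.8 CPM in Dex. In both sets every Dex library of WT lay above every EtOH library. Such separation was not particular to called genes: in WT of set 2 Zeb1 and Zeb2 also separated and were not called. Twist1 in WT of set 1 and Snai1 in Y551A-Dim likewise separated without a call. The share of all genes whose Dex and EtOH libraries separate was not determined in any line, so non-overlap here and below is a description only. The Gata3 log2 fold change was 1.46 ± 0.09 in set 1 (SE, adjusted p = 2.54e-12, edgeR) and 1.45 ± 0.13 in set 2 (adjusted p = 8.83e-07).

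In Y551A the Gata3 level was 6.02, 7.18 and 6.05 CPM in EtOH and 9.94, 8.90 and 8.31 CPM in Dex, a rise of 0.49 ± 0.09 (edgeR adjusted p = 0.00189). In Y551A-Dim it was 6.56, 5.91 and 5.16 CPM in EtOH and 5.90, 5.93 and 5.71 CPM in Dex. Those groups overlapped, and the fitted change of -0.01 had a 95% interval of -0.21 to 0.19 (edgeR adjusted p = 0.988). In D647V the level was 5.45, 6.62 and 6.56 CPM in EtOH and 9.94, 9.62 and 9.04 CPM in Dex, a rise of 0.62 ± 0.10 (edgeR adjusted p = 0.00305). In D647V-Tetra it was 5.08, 5.76 and 6.09 CPM in EtOH and 13.0, 11.9 and 12.2 CPM in Dex, a rise of 1.13 ± 0.10 (edgeR adjusted p = 1.41e-06). Dex and EtOH libraries did not overlap in any line other than Y551A-Dim.

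Sox9 rose with Dex in all 6 line responses, and no Dex library overlapped its EtOH group in any line. Sox9 of WT in set 1 stood at 61.7, 69.1 and 63.8 CPM in EtOH and at 91.8, 106 and 92.8 CPM in Dex. The 2 EtOH libraries of WT in set 2 stood at 85.1 and 81.8 CPM and both Dex libraries at 121.5 CPM. The WT rise was about 1.5-fold in each set, with log2 fold changes of 0.58 ± 0.08 in set 1 (edgeR adjusted p = 1.24e-05) and 0.54 ± 0.09 in set 2 (adjusted p = 0.00105).

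In Y551A the Sox9 level was 81.8, 78.5 and 81.4 CPM in EtOH and 127, 102 and 94.9 CPM in Dex, a rise of 0.42 ± 0.08 (edgeR adjusted p = 0.00144). In Y551A-Dim, the line without a called Gata3 response, Sox9 stood at 69.0, 66.7 and 61.2 CPM in EtOH and at 96.4, 103 and 84.6 CPM in Dex, a rise of 0.53 ± 0.08 (edgeR adjusted p = 0.000267). In D647V it stood at 73.4, 72.7 and 65.3 CPM in EtOH and at 106, 107 and 106 CPM in Dex, a rise of 0.59 ± 0.07 (edgeR adjusted p = 7.37e-05). D647V-Tetra had both the lowest EtOH libraries of set 2, at 51.5, 59.5 and 53.4 CPM, and the largest response, with 135, 109 and 127 CPM in Dex. Its log2 fold change was 1.17 ± 0.07 (edgeR adjusted p = 4.04e-09).

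Snai2 was the member that fell with Dex. In WT of set 1 it stood at 11.1, 10.2 and 11.1 CPM in EtOH and at 5.93, 5.84 and 6.85 CPM in Dex, and the log2 fold change was -0.79 ± 0.10 (edgeR adjusted p = 1.32e-06). The WT of set 2 had Snai2 at 7.45 and 9.22 CPM in EtOH and 4.45 and 4.71 CPM in Dex, a change of -0.87 ± 0.16 (edgeR adjusted p = 0.00601). Every WT Dex library was below every WT EtOH library of its set. With 1 library of set 2 left out, the set 2 call was lost for 3 of the 4 libraries (-0.70 without EtOH replicate 2, adjusted p = 0.139, -0.82 without Dex replicate 1, adjusted p = 0.0967, and -0.91 without Dex replicate 2, adjusted p = 0.0515).

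In the other lines the fitted falls of Snai2 were smaller, and most of those calls depended on single libraries. In Y551A it stood at 6.47, 8.41 and 7.27 CPM in EtOH and at 5.80, 5.49 and 5.36 CPM in Dex, with a change of -0.41 ± 0.10 (edgeR adjusted p = 0.0207). Without EtOH replicate 2 of Y551A the change was -0.31 (adjusted p = 0.244), and the call was lost for 4 of its 6 libraries left out, that one, EtOH replicate 3 and Dex replicates 2 and 3. In Y551A-Dim the level was 7.53, 7.27 and 6.46 CPM in EtOH and 4.73, 5.23 and 4.95 CPM in Dex, a change of -0.51 ± 0.10 (edgeR adjusted p = 0.00497). The groups of Y551A and of Y551A-Dim did not overlap.

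In D647V Snai2 stood at 8.52, 7.22 and 7.52 CPM in EtOH and at 5.23, 4.86 and 5.00 CPM in Dex, without overlap, and changed by -0.62 ± 0.13 (edgeR adjusted p = 0.0271). Leaving out any of its libraries other than EtOH replicate 2 lost the call, with changes of -0.65 to -0.55. In D647V-Tetra it stood at 6.69, 6.86 and 6.06 CPM in EtOH and at 6.10, 3.96 and 4.86 CPM in Dex, where 1 Dex library lay within the EtOH range. The change of -0.39 ± 0.13 was at the edge of the threshold (edgeR adjusted p = 0.0489) and was -0.25 without Dex replicate 2 (adjusted p = 0.165). It was called when Dex replicate 1 was left out and not when any of its other 5 libraries was, and it was lost at 10 or more reads in every library (adjusted p = 0.0529). With only the groups compared in the fit the calls of Y551A, Y551A-Dim and D647V-Tetra were lost, with Snai2 changes as above (adjusted p = 0.0682, 0.0751 and 0.0982).

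**Figure D2:**
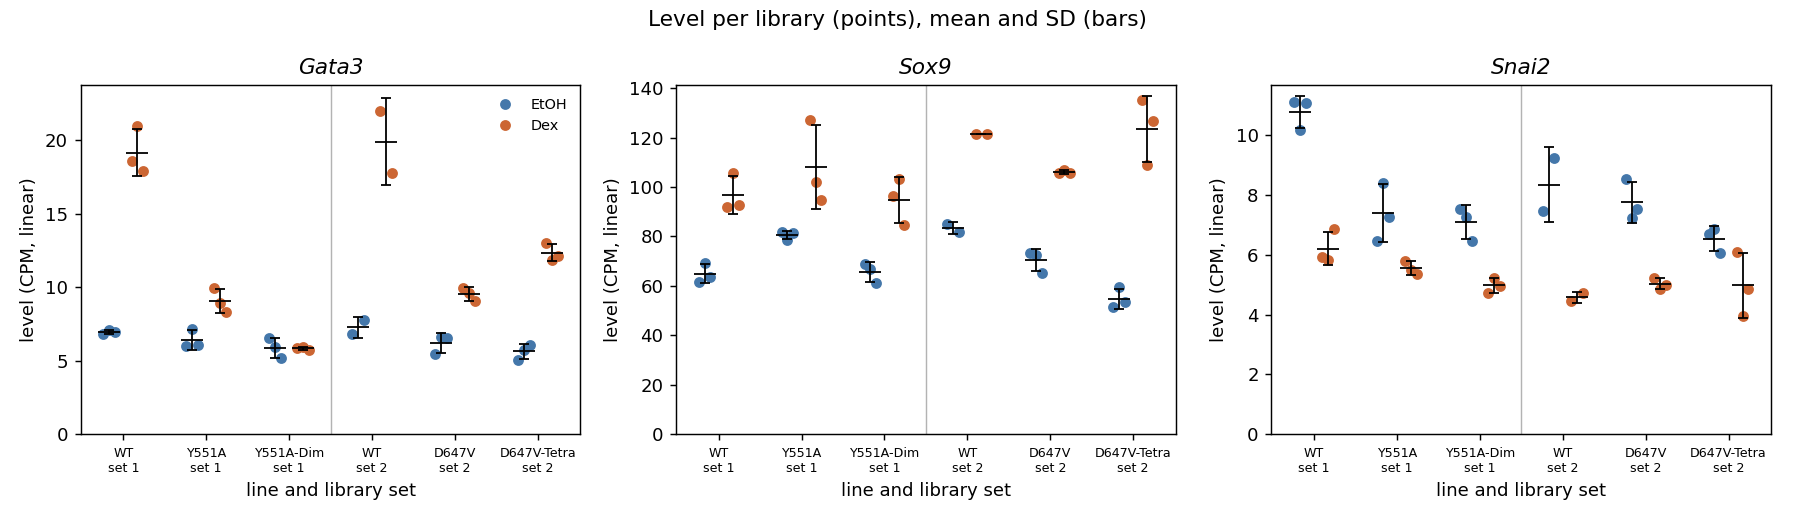
Levels of Gata3, Sox9 and Snai2 in CPM on a linear axis from 0, for each line and library set. Points are libraries (blue EtOH, orange Dex) and bars are the mean and SD (n = 3, or n = 2 for WT of set 2); the Gata3 points of Y551A-Dim overlap, and the Snai2 points of Dex lie below EtOH with 1 exception in D647V-Tetra.

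The remaining 4 factors gave 1 called Dex response among 24, in D647V-Tetra, where 19.2% of all genes were called (11.3% up). Zeb2 of D647V-Tetra stood at 103, 104 and 100 CPM in EtOH and at 113, 116 and 118 CPM in Dex, a rise of 0.18 ± 0.04 (edgeR adjusted p = 0.00754). The WT of set 1 had Zeb2 at 101, 102 and 101 CPM in EtOH and 101, 100.5 and 101 CPM in Dex, and the 95% interval of its log2 fold change was -0.09 to 0.07. Its set 2 libraries stood at 127 and 136 CPM in EtOH and at 124 and 123 CPM in Dex. They did not overlap, and the interval was -0.19 to 0.02.

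Snai1, the paralogue of Snai2, was not called in any of the 6 line responses, with log2 fold changes of -0.31 to 0.24 and a lowest adjusted p of 0.244. In WT of set 1 it stood at 5.98, 5.44 and 4.79 CPM in EtOH and at 5.10, 3.81 and 4.20 CPM in Dex, which overlap, and the interval of its change was -0.55 to -0.06. In Y551A-Dim it stood at 6.64, 6.96 and 5.47 CPM in EtOH and at 7.74, 6.99 and 7.74 CPM in Dex, which do not overlap, and the interval was 0.01 to 0.46. In WT of set 2, with 2 libraries a group, its interval was -0.56 to 0.14.

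Zeb1, on the plus strand of chromosome 18 from 5591860 to 5775467, had log2 fold changes of -0.14 to 0.07 (lowest adjusted p of 0.355) and Twist1 of -0.18 to 0.03 (lowest adjusted p of 0.179). Zeb1 of WT in set 1 stood at 62.1, 63.0 and 64.5 CPM in EtOH and at 62.6, 63.3 and 58.4 CPM in Dex, with an interval of -0.13 to 0.04. Twist1 stood there at 24.6, 22.6 and 23.3 CPM in EtOH and at 21.0, 22.3 and 22.0 CPM in Dex, without overlap, and its interval was -0.24 to 0.02. Zeb1 of WT in set 2 stood at 83.5 and 87.0 CPM in EtOH and at 81.3 and 73.3 CPM in Dex, without overlap. This change of -0.14 was not called (edgeR adjusted p = 0.527), and its interval was -0.28 to -0.003. Outside WT of set 1 Zeb1 libraries lay between 59.8 and 87.0 CPM and Twist1 libraries between 17.2 and 24.0 CPM.

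**Figure D3:**
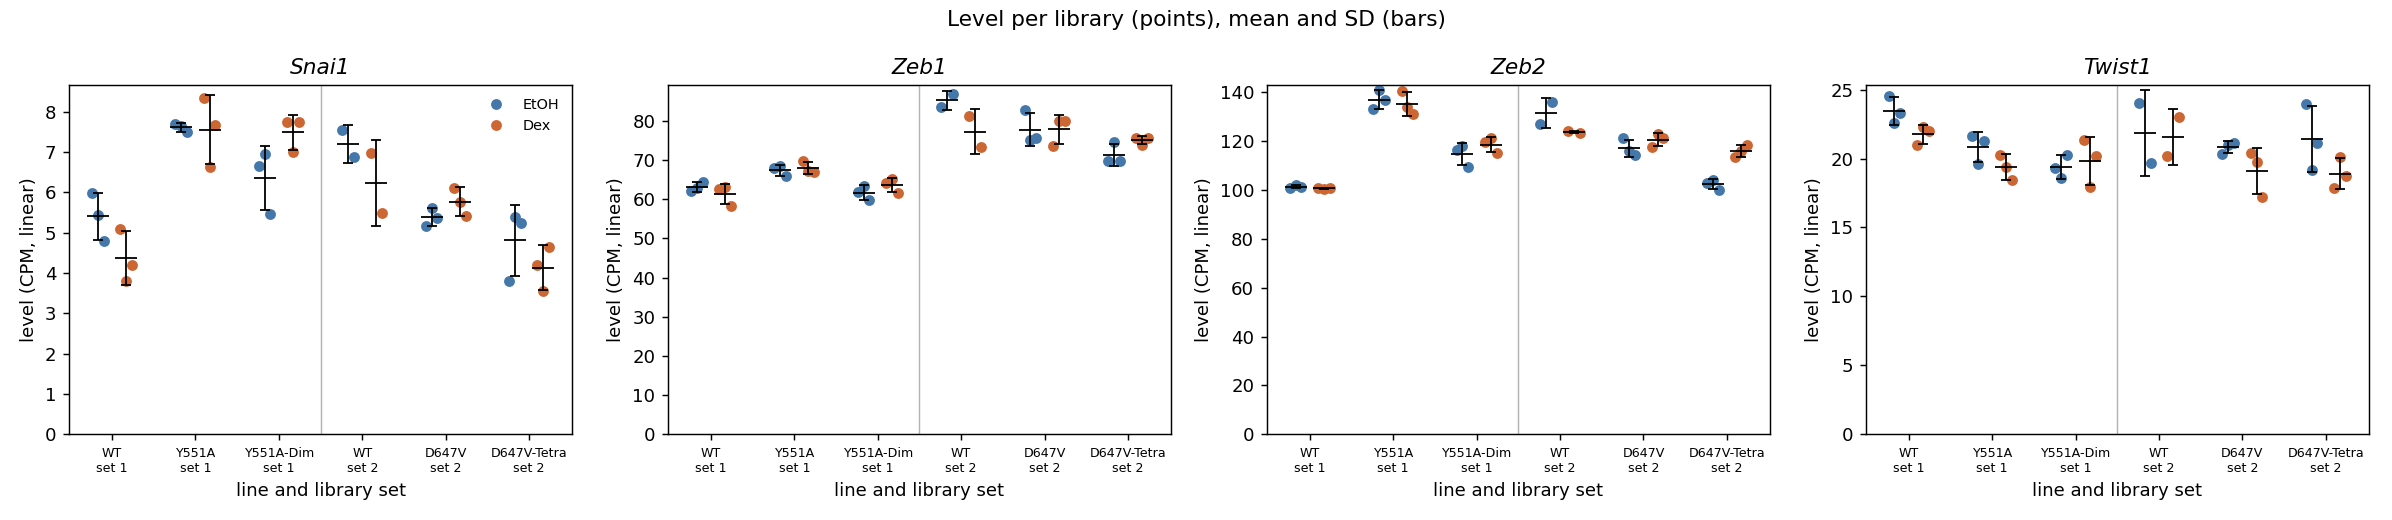
Levels of Snai1, Zeb1, Zeb2 and Twist1 in CPM on a linear axis from 0, for each line and library set, drawn as for the responding genes (points are libraries, bars are mean and SD). For Zeb2 the EtOH libraries of set 1 lie at 101 to 102 CPM in WT and 133 to 141 CPM in Y551A.

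The difference between the Dex responses of lines was tested directly. The comparisons within a set share libraries: those against WT share the WT libraries, and those between mutants use the same mutant libraries again. The Gata3 response of Y551A was smaller than that of WT by 0.96 ± 0.13 (difference -0.96, 95% interval -1.23 to -0.70, edgeR adjusted p = 0.000273), the only member called there beside 0.18% of all genes (0.118% down). That of Y551A-Dim was smaller than WT by 1.47 ± 0.13 (difference -1.47, interval -1.74 to -1.20, edgeR adjusted p = 1.71e-08), again the only member called, beside 1.47% of all genes (0.886% down). Between Y551A-Dim and Y551A the Gata3 difference was -0.50 ± 0.14 and no member was called (edgeR adjusted p = 0.126 for Gata3, 0.558% of all genes called). It was called with DESeq2 (adjusted p = 0.0487), when every gene with any count was tested (adjusted p = 0.0365), and without EtOH replicate 3 of Y551A-Dim, where it was -0.59 (adjusted p = 0.0393).

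In set 2 the Gata3 response of D647V differed from that of WT by -0.83 ± 0.16 (interval -1.17 to -0.49, edgeR adjusted p = 0.0481), beside 0.188% of all genes called (0.182% down). This call was lost in 11 of 16 other settings, with differences of -0.94 to -0.67. It was lost without any library of D647V other than EtOH replicate 1, without either EtOH library or Dex replicate 1 of WT, with only the groups compared, and at 10 or more reads in every library. The Gata3 response of D647V-Tetra was not called different from that of WT (-0.32, interval -0.66 to 0.02, edgeR adjusted p = 0.218) nor from that of D647V (0.51 ± 0.15, adjusted p = 0.126). The latter was called with DESeq2 (0.50, adjusted p = 0.0326) and when every gene with any count was tested (adjusted p = 0.0306).

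The Sox9 response of D647V-Tetra exceeded that of WT by 0.63 ± 0.11 (interval 0.40 to 0.86, edgeR adjusted p = 0.00545) and that of D647V by 0.58 ± 0.10 (interval 0.37 to 0.79, adjusted p = 0.00812). The first of these comparisons had 2 members called up beside 4.41% of all genes (3.7% up), the second 1 beside 0.873% (0.776% up). The other member of the first was Zeb2, at 0.27 ± 0.065 (edgeR adjusted p = 0.0304), a call that was lost in 9 of 16 other settings. It was 0.21 without EtOH replicate 2 of WT (adjusted p = 0.239), and was lost without either Dex library of WT, Dex replicate 1 or 3 or EtOH replicate 3 of D647V-Tetra, with only the groups compared, and with every gene with any count tested. Mean Sox9 in EtOH was 54.8 CPM in D647V-Tetra, 83.5 CPM in WT of set 2 and 70.5 CPM in D647V. In Dex these means were 123.5, 121.5 and 106 CPM, so D647V-Tetra started below WT and reached a similar level. Mean Zeb2 in D647V-Tetra and WT was 102 and 131 CPM in EtOH, and 116 and 124 CPM in Dex. The Sox9 response was not called different from WT in Y551A (-0.15, interval -0.39 to 0.08), Y551A-Dim (-0.05, interval -0.28 to 0.18) or D647V (0.05, interval -0.18 to 0.28). These intervals leave room for differences of up to about 0.4 on the log2 scale.

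The smaller Snai2 response of the other lines was not called different from that of WT. The difference was 0.38 in Y551A (interval 0.10 to 0.66, edgeR adjusted p = 0.668), 0.28 in Y551A-Dim (interval 0.00 to 0.56, adjusted p = 0.563), 0.24 in D647V (interval -0.20 to 0.69) and 0.47 in D647V-Tetra (interval 0.02 to 0.92, adjusted p = 0.17). In set 1 mean Snai2 in EtOH was 10.8 CPM in WT, 7.38 CPM in Y551A and 7.09 CPM in Y551A-Dim. In Dex these means were 6.2, 5.55 and 4.97 CPM, so the smaller falls started from lower EtOH levels. In set 2 mean Snai2 in EtOH was 8.33 CPM in WT, 7.75 CPM in D647V and 6.54 CPM in D647V-Tetra. In Dex these means were 4.58, 5.03 and 4.97 CPM. For Snai1 the largest difference was 0.54 ± 0.16 between Y551A-Dim and WT (edgeR adjusted p = 0.117), which was called without Dex replicate 1 of WT (0.67, adjusted p = 0.0313) and when every gene with any count was tested (0.55, adjusted p = 0.0294).

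**Figure D4:**
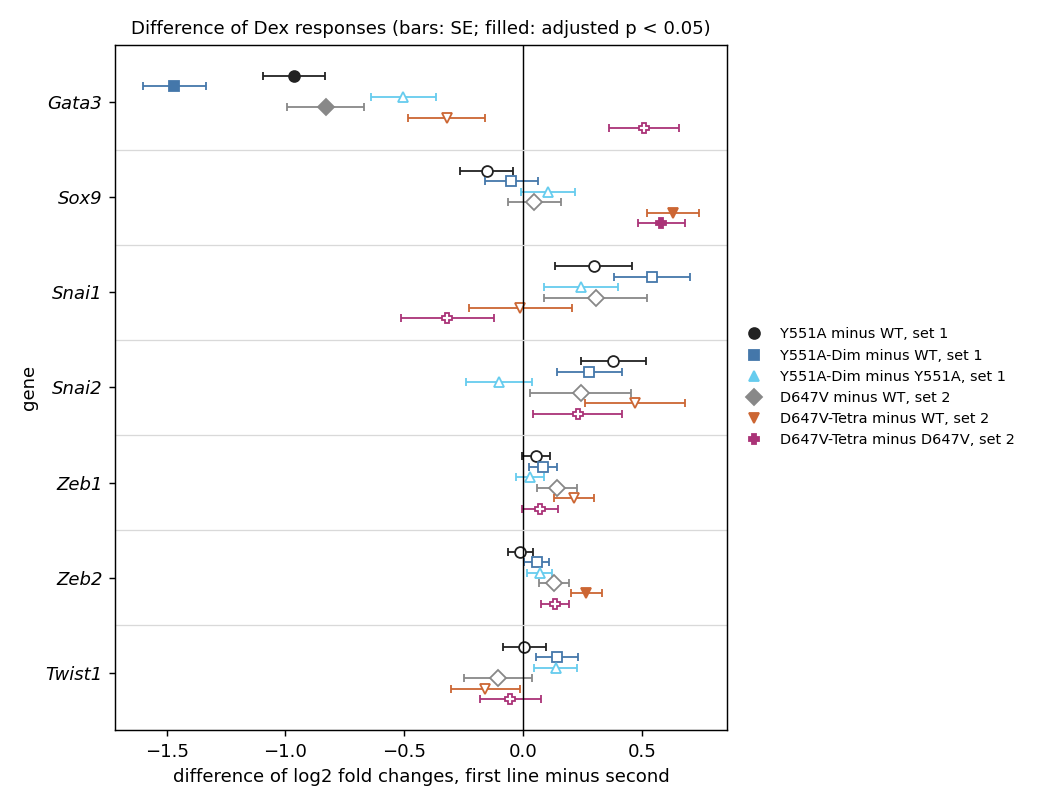
Difference between the Dex responses of pairs of lines of the same set (first minus second, log2 scale), with the SE as bars and filled symbols for adjusted p below 0.05. Gata3 is negative in Y551A, Y551A-Dim and D647V against WT (-0.96, -1.47 and -0.83), and Sox9 is positive in D647V-Tetra against WT and against D647V (0.63 and 0.58).

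The EtOH levels also differed between lines. Zeb2 was called in 6 of the 6 comparisons of lines and Gata3 in 1, and these comparisons share EtOH libraries within a set. Of all genes, 4.53% to 42.5% were called in them. The SE was 0.0375 to 0.0457 for Zeb2 and 0.095 to 0.117 for Gata3, so smaller differences could be called for Zeb2 than for Gata3. In Y551A against WT, Zeb2 was higher by 0.43 ± 0.04 (133, 141 and 137 against 101, 102 and 101 CPM, edgeR adjusted p = 4.51e-10), Snai1 by 0.49 ± 0.11 (7.70, 7.64 and 7.50 against 5.98, 5.44 and 4.79 CPM, adjusted p = 0.000728) and Sox9 by 0.31 ± 0.08 (adjusted p = 0.00227). Snai2 was lower, at -0.54 ± 0.09 (adjusted p = 2.96e-05), and so was Twist1, at -0.17 ± 0.06 (adjusted p = 0.0285). That makes 3 members up and 2 down, in a comparison in which 42.5% of all genes were called, 18.9% up and 23.5% down. The Twist1 call was lost in 6 of 12 other settings and was -0.11 without EtOH replicate 1 of WT (adjusted p = 0.254), and it was also lost without EtOH replicate 2 or 3 of WT or EtOH replicate 2 of Y551A. Zeb1, at 0.09 ± 0.04 (adjusted p = 0.0676), was called without EtOH replicate 2 of WT (0.12, adjusted p = 0.0451) or replicate 3 (0.14, adjusted p = 0.0183), and also with DESeq2, with its size factors, at 10 or more reads in every library and with only the groups compared (0.11 to 0.12).

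In Y551A-Dim against WT 1 member was up and 2 were down (23.3% of all genes called, 10% up and 13.3% down). Zeb2 was higher by 0.18 ± 0.04 (116, 118 and 109 against 101, 102 and 101 CPM, edgeR adjusted p = 0.00116), Snai2 was lower at -0.60 ± 0.09 (adjusted p = 2.98e-05) and Twist1 lower at -0.28 ± 0.06 (adjusted p = 0.00218). Gata3, at -0.24 ± 0.10 (adjusted p = 0.0674), was called at -0.33 without EtOH replicate 1 of Y551A-Dim (adjusted p = 0.031). In Y551A-Dim against Y551A 3 members were down and none up (29% of all genes called, 14.2% down): Sox9 at -0.30 ± 0.08 (edgeR adjusted p = 0.00568), Zeb2 at -0.26 ± 0.04 (adjusted p = 5.71e-06) and Zeb1 at -0.13 ± 0.04 (adjusted p = 0.0195). The Zeb1 call was lost, at -0.12 to -0.10, without EtOH replicate 1 or 2 of Y551A or replicate 3 of Y551A-Dim. Snai1, at -0.26 ± 0.11 (adjusted p = 0.0837), was called at -0.34 without EtOH replicate 2 of Y551A-Dim (adjusted p = 0.0426) and at -0.27 with only the groups compared (adjusted p = 0.0381).

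In set 2 the called EtOH differences of the members were all downward in the mutants. D647V-Tetra had 5 members below WT, beside 18.7% of all genes called and 9.34% called down. They were Sox9 at -0.61 ± 0.08 (edgeR adjusted p = 6.81e-05), Snai1 at -0.58 ± 0.15 (adjusted p = 0.0127), Gata3 at -0.37 ± 0.12 (adjusted p = 0.0372), Zeb2 at -0.36 ± 0.05 (adjusted p = 6.40e-05) and Zeb1 at -0.26 ± 0.06 (adjusted p = 0.00599). WT has 2 EtOH libraries in this set, and without EtOH replicate 2 of WT 2 of these calls were left, with Gata3 at -0.25 (adjusted p = 0.341), Snai1 at -0.64 (adjusted p = 0.0505) and Zeb1 at -0.22 (adjusted p = 0.0903). Without EtOH replicate 1 of D647V-Tetra 3 were left, with Gata3 at -0.29 (adjusted p = 0.127) and Snai1 at -0.43 (adjusted p = 0.0504). The Gata3 call was also lost without EtOH replicate 2 of D647V-Tetra and with only the groups compared (adjusted p = 0.103), and the Snai1 call without EtOH replicate 1 of WT.

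D647V had 1 member below WT (7.36% of all genes called, 2.78% down), Zeb2 at -0.17 ± 0.05 (121, 116 and 114 against 127 and 136 CPM, edgeR adjusted p = 0.0341). That call was lost in 7 of 11 other settings and was -0.11 without EtOH replicate 2 of WT (adjusted p = 0.294), and it was also lost without EtOH replicate 1 of WT or replicate 2 or 3 of D647V. Sox9, at -0.24 ± 0.08 (adjusted p = 0.0682), was called with DESeq2 (-0.25, adjusted p = 0.0226) and with every gene with any count tested (adjusted p = 0.00653), and Snai1, at -0.42 ± 0.15 (adjusted p = 0.113), with DESeq2 (-0.43, adjusted p = 0.0394). D647V-Tetra had 2 members below D647V (4.53% of all genes called, 4% down), Sox9 at -0.36 ± 0.07 (51.5, 59.5 and 53.4 against 73.4, 72.7 and 65.3 CPM, edgeR adjusted p = 0.00831) and Zeb2 at -0.19 ± 0.04 (103, 104 and 100 against 121, 116 and 114 CPM, adjusted p = 0.0127). Both calls were lost without EtOH replicate 1 or 2 of D647V, the Sox9 call also without EtOH replicate 1 of D647V-Tetra (-0.31, adjusted p = 0.0502), and the Zeb2 call also without its replicate 3 (-0.18, adjusted p = 0.0603) and with only the groups compared (adjusted p = 0.0837).

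**Figure D5:**
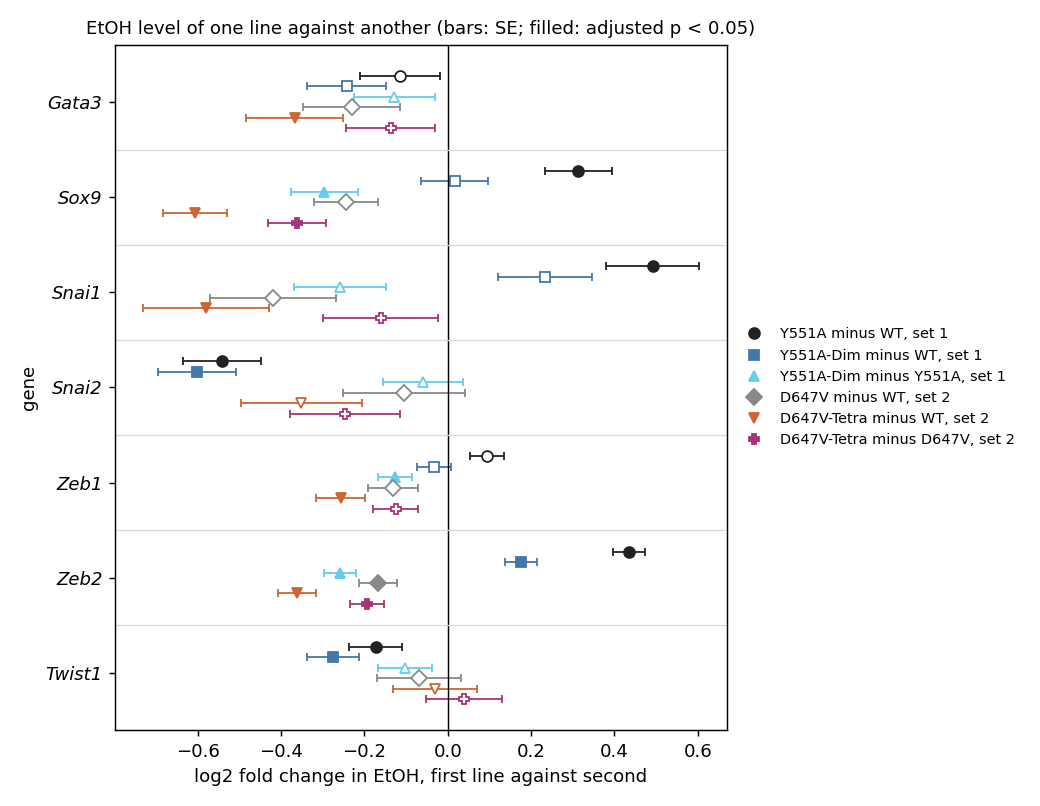
Difference in EtOH level between pairs of lines of the same set (first minus second, log2 scale) for the 7 genes, with the SE as bars and filled symbols for adjusted p below 0.05. Zeb2 lies at 0.43 in Y551A and 0.18 in Y551A-Dim against WT and at -0.36 in D647V-Tetra against WT, and Snai2 lies at -0.54 and -0.60 in Y551A and Y551A-Dim against WT.

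Other values moved with these differences. Reads assigned to Nr3c1, in which the tagged receptor and the disrupted locus cannot be told apart, stood in EtOH at 276 to 287 CPM in WT of set 1, 341 to 352 CPM in Y551A and 307 to 314 CPM in Y551A-Dim, and at 337 to 341 CPM in WT of set 2, 285 to 289 CPM in D647V and 256 to 274 CPM in D647V-Tetra. In set 1 both mutants were above WT and in set 2 both were below it. The summed luminal markers, carried by Cd24a, were higher in Dex than in EtOH in every line, for example 241 to 254 against 207 to 214 CPM in WT of set 1, while Epcam stayed at 0. The summed mesenchymal markers overlapped between Dex and EtOH in 5 of the 6 line and set pairs, and in WT of set 1 stood at 5100 to 5190 CPM in EtOH and 4810 to 5050 CPM in Dex. Between lines in EtOH, the summed basal markers, mostly Mylk and Krt14, stood at 25.7 to 26.1 CPM in WT of set 1, 42.1 to 43.3 CPM in Y551A and 29.8 to 32.4 CPM in Y551A-Dim, and at 28.5 to 29.2 CPM in WT of set 2, 23.1 to 24.6 CPM in D647V and 20.9 to 21.4 CPM in D647V-Tetra. The summed endothelial markers, mostly Cdh5, stood at 7.46 to 7.83 CPM in WT of set 1, 2.95 to 3.81 CPM in Y551A and 2.53 to 2.86 CPM in Y551A-Dim, and at 6.07 to 6.58 CPM in WT of set 2, 2.11 to 2.74 CPM in D647V and 2.09 to 2.38 CPM in D647V-Tetra. Their defining genes Kdr and Tek had at most 4 and 6 reads in any library. Of the basal markers, Krt14 ranged from 2.46 to 19.7 CPM and Mylk from 16 to 25.4 CPM over all libraries. Trp63, a basal marker with at most 133 reads in any library, was called lower in EtOH in each mutant line than in WT of its set. The part of the receptor transcript or of these markers in the differences above was not tested.

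Genes that these factors are known to control, or that serve the same cell states, were counted in lists. Of 25 epithelial junction and splicing genes, 15 did not pass the filter in either set and none of those exceeded 14 reads in any library. They include Cdh1, Ocln, Esrp1, Esrp2 and Ovol2, the last at 0 reads throughout. None of the 8 genes tested in set 1 (median log2 fold change of -0.01 in WT, as for all genes) or of the 10 tested in set 2 was called in Dex in any line, with the exception of Tjp1, a tight junction scaffold, in D647V-Tetra (0.20 ± 0.04, edgeR adjusted p = 0.00276). Of 24 mesenchymal genes 19 were tested in each set. Itga5, a fibronectin receptor subunit, rose in WT of set 1 (0.66 ± 0.05, edgeR adjusted p = 1.23e-09), WT of set 2 (0.83 ± 0.10), Y551A (0.50 ± 0.05), D647V (0.50 ± 0.09) and D647V-Tetra (0.64 ± 0.09). Its mean in Y551A-Dim was 61.3 CPM in EtOH and 61.4 CPM in Dex, and its response there was smaller than that of WT by 0.66 ± 0.08 (difference -0.66, adjusted p = 1.96e-06). Pdgfrb fell in WT of set 1 (-0.18 ± 0.04, adjusted p = 0.0162). Fn1, the fibronectin gene, was called up in Y551A-Dim (0.34 ± 0.07, adjusted p = 0.0113) and D647V-Tetra (0.63 ± 0.08, adjusted p = 6.13e-05), where S100a4 fell (-0.32 ± 0.07, adjusted p = 0.00743).

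Of 19 other luminal transcription factors 10 were tested in each set, and Foxa1, a partner of the estrogen receptor, had 0 reads throughout. Cebpb, a leucine zipper factor of mammary differentiation, rose from 27.4 to 50.4 CPM on average in WT of set 1 (0.88 ± 0.06, edgeR adjusted p = 1.66e-11), and also in WT of set 2 (0.92 ± 0.17) and in Y551A (0.54 ± 0.06). Its response in Y551A-Dim was smaller than in WT (difference -0.76 ± 0.08, adjusted p = 9.30e-07) and smaller than in Y551A (-0.42 ± 0.09, adjusted p = 0.0126). Klf5, a Krüppel-like factor, fell from 19.5 to 14.2 CPM in WT of set 1 (-0.46 ± 0.06, adjusted p = 4.59e-06) and fell in WT of set 2 (-0.58 ± 0.08), Y551A (-0.24 ± 0.06), D647V (-0.30 ± 0.07) and D647V-Tetra (-0.24 ± 0.07). In D647V-Tetra Runx1 rose (0.45 ± 0.12, adjusted p = 0.0183), as did Tfap2a (0.40 ± 0.14, adjusted p = 0.048), and Xbp1 fell (-0.17 ± 0.05, adjusted p = 0.0381). The median over the 10 genes was -0.12 in WT of set 1, against -0.01 over all genes. It was -0.06 in Y551A, -0.03 in Y551A-Dim, -0.04 in WT of set 2, 0.003 in D647V and 0.20 in D647V-Tetra. Over all genes the medians of these responses lay between -0.006 and 0.002.

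Of 13 other basal and progenitor factors 6 were tested. Etv4 and Sox4 fell in D647V-Tetra (-0.20 ± 0.06, edgeR adjusted p = 0.0372, and -0.21 ± 0.05, adjusted p = 0.00771). Of 20 other EMT factors and paralogues 9 were tested, and Hmga2, a chromatin protein upstream of Snai1 and Twist1 in other cells, rose in all 6 line responses. Its log2 fold changes were 0.74 ± 0.06 in WT of set 1, 0.62 ± 0.06 in Y551A, 0.23 ± 0.06 in Y551A-Dim (edgeR adjusted p = 0.0427), 0.75 ± 0.08 in WT of set 2, 0.67 ± 0.07 in D647V and 0.94 ± 0.07 in D647V-Tetra. The response of Hmga2 in Y551A-Dim was smaller than in WT by 0.51 ± 0.08 (difference -0.51, adjusted p = 0.000156). In D647V-Tetra Tcf4 and Tcf12, partners of TWIST1, rose (0.31 ± 0.05 and 0.20 ± 0.06) and Foxc1 fell (-0.21 ± 0.05).

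All 23 cofactors and degraders of the members were tested. Ajuba, a LIM protein that binds SNAI proteins, fell in WT of set 1 (100.3 to 79.2 CPM on average, -0.34 ± 0.04, edgeR adjusted p = 3.66e-06), Y551A (-0.19 ± 0.04), Y551A-Dim (-0.19 ± 0.04) and D647V-Tetra (-0.50 ± 0.06), and was not called in WT of set 2 (-0.26 ± 0.07, adjusted p = 0.0834) or D647V (-0.21 ± 0.06, adjusted p = 0.149). Lats2, a kinase that phosphorylates SNAI1, fell in WT of set 1 (-0.23 ± 0.06, adjusted p = 0.0331). In D647V-Tetra 4 of the 23 rose and 3 fell, beside 11.3% and 7.89% of all genes. They include Gsk3b, the kinase that marks SNAI1 for degradation (0.38 ± 0.06, adjusted p = 0.000618), and Fbxo11, a ubiquitin ligase subunit for SNAI proteins (0.37 ± 0.09, adjusted p = 0.0106).

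The members' profiles were compared over the 12 group means, each centred on its library set. The groups share their lines, treatments and libraries, so the correlations are descriptions. Zeb1 and Zeb2 had r = 0.84, Snai1 and Zeb2 r = 0.832, Gata3 and Sox9 r = 0.725, and Sox9 and Snai2 r = -0.743, while the paralogues Snai1 and Snai2 had r = -0.043. Among 10184 genes the profiles most like that of Gata3 were Ell2 (r = 0.964), Map7d2 (0.954) and Arrdc2 (0.949). Sox9 was most like Zfp862-ps (0.951), Shroom1 (0.942) and Per2 (0.938), and Snai2 most like Rin1 (0.972), Mecom (0.936) and Map3k14 (0.912). For Snai1 the highest was Nr3c1 itself (0.953), followed by Ift27 (0.935) and Gstm1 (0.932). Zeb1 was most like Trappc9 (0.972), Zeb2 most like Rock2 and Plxna2 (both 0.986), and Twist1 most like Prkar2b (0.974).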

How the data were processed

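Per the labels' protocols, total RNA was depleted of ribosomal RNA, made into stranded libraries with 2 kits in 2 batches that are not assigned to libraries, and sequenced as 100 bp pairs. The submitters' processing notes name mm10, bcl2fastq 2.17, cutadapt, STAR and featureCounts. The deposited files hold unnormalized read counts for each gene name, per the file headers, made with featureCounts 2.0.3 (strand option 2, exons, both mates counted) on GENCODE M21, with marked duplicates kept. The column headers of 16 set 2 libraries and 0 set 1 libraries carry the word "resent".

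Genes were kept with filterByExpr, scaled by TMM and tested with edgeR 4.0.16 (quasi-likelihood, two-sided) in R 4.3.3, with 1 mean per group. Set 1 had 16140 genes and 12 residual degrees of freedom, set 2 had 17535 and 10. The 10 WT libraries were also fitted together (16540 genes). Calls were made at an adjusted p under 0.05 over all genes tested, and the SE is the absolute log2 fold change divided by the root of F. CPM use TMM library sizes within a set. Intervals are 95% and unadjusted; they and the limit for a count of 0 cover the spread between libraries and counting error only. A value not called in either setting has no direction. Spike-in scaling was not used here.

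All 7 genes are named; of each list, genes were named among the 3 lowest p in a contrast or for their reads, and likeness by the 3 highest correlations. The result of 1 listed gene is not reported here. Members and lists were chosen with earlier results of these data known. The closest replicate pair differed beyond sampling noise (chi-square per degree of freedom 2.86). The script was tested on simulated data. Other settings were DESeq2 1.42.0 (test, and size factors alone), 2 other count filters, a replicate block, only the groups compared, and each library left out.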

Additional observations from a re-analysis of the deposited data

Results flagged for a closer look

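The Dex response differed between lines, by a test of the difference itself (edgeR quasi-likelihood test, adjusted over all genes), for 6 values of the 7 genes. For Gata3 the response was smaller than in WT of the same set in Y551A (difference -0.96 ± 0.13, SE, adjusted p = 0.000273), Y551A-Dim (-1.47 ± 0.13, adjusted p = 1.71e-08) and D647V (-0.83 ± 0.16, adjusted p = 0.0481). For Sox9 it was larger in D647V-Tetra than in WT (0.63 ± 0.11, adjusted p = 0.00545) and than in D647V (0.58 ± 0.10, adjusted p = 0.00812). For Zeb2 it was larger in D647V-Tetra than in WT (0.27 ± 0.065, adjusted p = 0.0304). The EtOH level of D647V-Tetra was below that of WT for both Sox9 (-0.61) and Zeb2 (-0.36), and below that of D647V for Sox9 (-0.36). The Gata3 difference of D647V was called in 5 and the Zeb2 difference in 7 of 16 other settings. The comparisons with WT of a set share its WT libraries.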

How the results depend on the processing

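Of 140 values (7 genes in 20 comparisons), 46 were called, and 31 of these stayed called under every alternative run, as 86 of the others stayed not called. The remaining 23 changed in at least 1, and 0 reversed. The Dex responses of Gata3 and Sox9 that were called, that of Snai2 in WT of set 1, the Gata3 differences of Y551A and Y551A-Dim from WT and the Sox9 differences of D647V-Tetra were among the 31. Numbers of members called moved by more than 1.5 times as follows. With every gene with any count tested, the difference of responses gave 2 for Y551A-Dim against WT (from 1), 1 for Y551A-Dim against Y551A (from 0), 1 for D647V-Tetra against WT (from 2) and 2 for D647V-Tetra against D647V (from 1). At 10 or more reads in every library, D647V against WT gave 0 (from 1). With the replicate number as a block, the EtOH level of D647V against WT gave 0 (from 1), as did its difference of responses (from 1), and that of D647V-Tetra against WT gave 1 (from 2). The block also lost the Snai2 calls of D647V (adjusted p = 0.0524) and D647V-Tetra (adjusted p = 0.0664) and the lower EtOH level of Gata3 in D647V-Tetra (adjusted p = 0.0635), and changed no other call. With only the groups compared, the Dex response of Y551A-Dim gave 1 (from 2), the EtOH level of D647V against WT 0 (from 1) and of D647V-Tetra against D647V 1 (from 2), and the difference of responses 0 for D647V (from 1) and 1 for D647V-Tetra (from 2) against WT. With DESeq2, the difference for Y551A-Dim against Y551A gave 1 (from 0), that for D647V-Tetra against D647V 2 (from 1), and the EtOH level of D647V against WT 3 (from 1). Leaving out 1 library gave 1 to 2 for the difference of Y551A-Dim against WT, 0 to 1 for Y551A-Dim against Y551A, 0 to 1 for D647V and 1 to 2 for D647V-Tetra against WT, and for EtOH levels 0 to 1 (D647V against WT), 2 to 5 (D647V-Tetra against WT) and 0 to 2 (D647V-Tetra against D647V). The other ranges were within 1.5 times: 2 to 3 for the Dex responses of Y551A, D647V and WT of set 2, 3 to 4 for that of D647V-Tetra, and for EtOH levels 4 to 5 (Y551A against WT), 3 to 4 (Y551A-Dim against WT) and 2 to 4 (Y551A-Dim against Y551A). A lone WT library of set 2 was assumed to vary like the other groups. Fewer libraries leave fewer degrees of freedom, and otherwise the cause was not tested. Libraries with the same replicate number did not deviate in the same direction (r of -0.337 to 0.04 in set 1 and -0.653 to 0.113 in set 2). The numbers therefore gave no pairing to use. Centring makes the r of both WT replicates of set 2 equal (-0.562). Most r in set 2 were negative, so libraries of different numbers shared variation. The fits without a block treat these libraries as independent, and crossed numbers were fitted only for WT of set 2. Pairing WT replicate 1 with 2 in set 2, chosen after seeing the data, called 3 members, as did the fit without a block. Snai1 and Snai2 had few reads, 171 to 687 per library.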
